A study of Homo sapiens with 4 samples.

Results

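The ratio of ribosome footprints to RNA was examined gene by gene in a cell line labelled as overexpressing LIN28B and lacking IMP1, derived from the established human colorectal adenocarcinoma line SW480. A gene entered when it had at least 100 counts in the RNA library or at least 100 in the footprint library of that line, which 8598 of 19192 genes (44.8%) did. The comparison line is the SW480 derivative labelled LIN28B OE, so by label both lines overexpress LIN28B and differ in IMP1. Each line gave 1 footprint library and 1 RNA library, each from 3 pooled culture plates, and total counts were 3260262 footprints and 6813372 RNA counts in the knockout-labelled line and 2732760 and 5429224 in the OE-labelled line. With 1 library a side there is no replicate check, no value below carries a test, and the 95% intervals cover counting error only.

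Ribosome profiling sequences the short stretches of mRNA that ribosomes protect from nuclease. Set against fragments of the same cells' total RNA, they show how many ribosomes a transcript carries for its abundance, a quantity often called translational efficiency. IMP1, encoded by IGF2BP1, is an RNA-binding protein that affects the stability, location and translation of its target mRNAs, and LIN28B blocks maturation of let-7 microRNAs, which repress IGF2BP1 among other mRNAs. Values here are log2 footprint over RNA CPM (counts per 1000000 counts of the library), with 0.5 added to each count, relative to the median gene of the line, which is set to 0. The raw medians were -0.14 in the knockout-labelled line and -0.03 in the OE-labelled line.

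The gene named by the label was not low in the knockout-labelled libraries. IGF2BP1 had 1974 RNA counts and 821 footprint counts there, against 840 and 332 in the OE-labelled libraries. LIN28B had 303 RNA counts and 46 footprint counts, against 1205 and 190, so its RNA was lower in the knockout-labelled line (44.5 against 222 CPM). The lines are therefore called knockout-labelled and OE-labelled throughout. No direction below is a measured loss of IMP1, and the lines also differed in LIN28B. Of 10 colorectal epithelial markers, KRT20, CDX1 and LGALS4 were at 0 in all 4 libraries and the list summed to 5160 CPM in knockout-labelled RNA and 15070 CPM in its footprints, compared with 10026 and 29528 CPM in the OE-labelled line. Haematopoietic markers summed to 24.7 CPM in RNA and 32.2 CPM in footprints, fibroblast, endothelial and muscle markers to 49.6 and 79.7 CPM, and neural and germ cell markers to 1.76 and 13.5 CPM in the knockout-labelled line.

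IGF2BP1 itself lay close to the median gene of the knockout-labelled line, at -0.06 (95% interval -0.18 to 0.06), and at -0.31 in the OE-labelled line. Its paralogue IGF2BP2 had 739 footprint and 2387 RNA counts and a value of -0.49 (-0.61 to -0.37), and -0.84 in the OE-labelled line. IGF2BP3, the third IMP gene, stood higher, with 255 footprint and 259 RNA counts and a value of 1.18 (0.93 to 1.44), against 0.43 from 253 and 382 counts. LIN28B was low in both lines, at -1.50 (-2.0 to -1.06) and -1.64, but at 0.29 in the knockout-labelled line when RNA counts were scaled by the share of the transcript that is coding. Ordered by value without that scaling in the knockout-labelled line, the 4 genes ran IGF2BP3, IGF2BP1, IGF2BP2 and LIN28B. No counting intervals of neighbours overlapped. The coding share of the listed transcript was lowest for LIN28B, next lowest for IGF2BP1, and higher for IGF2BP3 and IGF2BP2. Scaled values of the IMP genes are not given here. Whether this order, and the place of IGF2BP1 near the median gene, hold under that scaling is therefore not shown.

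Values spread widely over the 8598 genes and reached further below the median gene than above it. The middle 50% of genes ran from -0.90 to 0.74, and the 5th and 95th percentiles were -2.55 and 1.55. At least 2-fold above the median gene stood 1418 genes (16.5%), and 1975 (23.0%) stood at least 2-fold below, compared with 15.3% and 22.9% of 7733 genes in the OE-labelled line. The asymmetry grew further out: 100 genes were at least 4-fold above and 770 at least 4-fold below, and 1 gene was at least 16-fold above against 110 at least 16-fold below. In all, 17 genes had 0 footprints, while no gene that passed had 0 RNA counts. The entry rule bears on these tails, since 100 counts are 14.7 CPM in the RNA library and 30.7 CPM in the footprint library. The 5320 genes with at least 100 counts in both assays had a median of 0.48, the 3177 that passed through RNA alone -0.96, and the 101 that passed through footprints alone 1.89. The 144 genes just inside the minimum, whose larger count was under 105, had a median of 0.09, and the 136 just outside, at 95 or more, had -0.04.

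**Figure D1:**
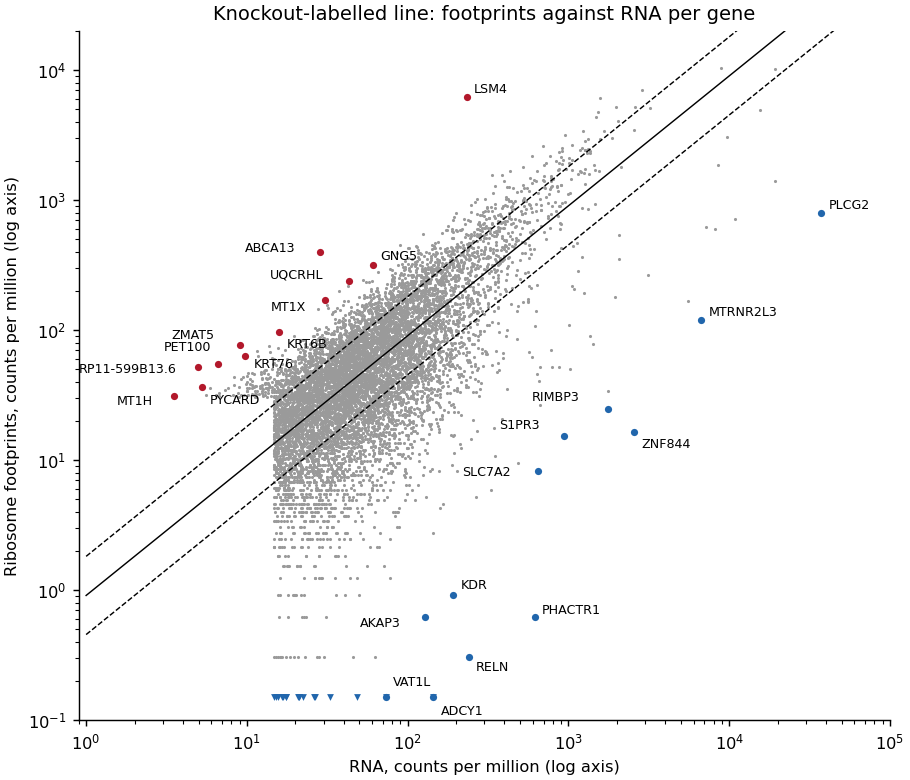
Footprint CPM (vertical, log axis) against RNA CPM (horizontal, log axis) for each of the 8598 genes in the knockout-labelled line; the solid line is the median gene, dashed lines are 2-fold above and below, red and blue points are the 12 highest and 12 lowest genes, and triangles at the lower edge are genes with 0 footprints. LSM4 stands apart above the cloud, and the low genes spread over a far wider range of RNA than the high ones.

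The highest gene by a wide margin was LSM4, a subunit of the LSm ring that binds U6 snRNA and decapping substrates. It had 20449 footprint counts and 1584 RNA counts in the knockout-labelled line, a value of 4.89 (4.82 to 4.97) or 29.8-fold above the median gene, and 35110 and 1535 counts (5.54) in the OE-labelled line. LSM4 footprints stood at 6272 CPM in the knockout-labelled line, above those of the keratin KRT8 (6116 CPM). Where they lie within the listed transcript is not given, so the LSM4 value is uncertain. ABCA13, a very large ABC transporter, was next at 3.93 (3.72 to 4.16), from 1296 footprint and 195 RNA counts, and had 752 and 162 counts (3.23) in the other line. Among the genes that passed in both lines, LSM4 and ABCA13 held the first and the second place in each. ZMAT5, a protein of the minor spliceosome, had 252 and 62 counts (3.22) against 119 and 59 (2.03). PET100, an assembly factor of cytochrome c oxidase, had 180 and 45 counts (3.19) against 77 and 44 (1.82). Per library total, the footprints of ZMAT5 were higher in the knockout-labelled line (77.3 against 43.5 CPM) and its RNA a little lower (9.1 against 10.9 CPM), and PET100 gave 55.2 against 28.2 and 6.6 against 8.1 CPM.

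The rest of the 12 highest genes were mostly short or belong to families with near copies. The metallothioneins MT1H (101 footprint and 24 RNA counts, 3.26) and MT1X (552 and 208, 2.61) bind metals, and the keratins KRT76 (207 and 66, 2.85) and KRT6B (315 and 108, 2.74) are type II intermediate filament proteins. UQCRHL (783 and 294, 2.62) is a near copy of UQCRH, a subunit of respiratory complex III. Reads of these 5 genes may be split with their relatives, so their values are uncertain. RP11-599B13.6 (169 and 34, 3.50) and GNG5, a G protein gamma subunit (1036 and 415, 2.52), were also among the 12. PYCARD, the inflammasome adaptor ASC, differed most between the lines in this group. It had 118 footprint and 36 RNA counts (2.90, 2.37 to 3.50) against 92 and 127 (0.56). Its footprints were similar (36.2 against 33.7 CPM) and its RNA was lower in the knockout-labelled line (5.28 against 23.4 CPM), and its percentile went from 69.9 to 99.95.

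The lowest genes had abundant RNA and almost no footprints. PHACTR1, a regulator of actin and protein phosphatase 1, had 2 footprint counts against 4216 RNA counts, a value of -9.52 (-12.88 to -7.98), and 19 against 7435 (-7.55) in the OE-labelled line. RELN, the secreted matrix protein reelin, had 1 footprint against 1629 RNA counts (-8.88, -14.77 to -6.98), and 2 against 1260. KDR, the VEGF receptor 2, had 3 against 1312 counts (-7.35, -9.85 to -6.02), and 3 against 1571. AKAP3, a sperm anchoring protein for protein kinase A, had 2 against 876 counts (-7.25, -10.62 to -5.71), and 3 against 475. In each of these 4 genes both lines gave fewer than 20 footprints, so the exact depth of the low value is poorly fixed. Of genes with 0 footprints, ADCY1, an adenylyl cyclase, had 982 RNA counts and was at least 142-fold lower than the median gene, taking 3 counts per library as the floor. VAT1L (500 RNA counts) was at least 72.3-fold lower, DMRT2 (332) at least 48.0-fold, NRTN (224) at least 32.4-fold, EDN3 (180) at least 26.0-fold and DMPK (177) at least 25.6-fold. In the OE-labelled line these 6 genes had 1, 2, 3, 3, 3 and 9 footprints.

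A second kind of low gene had many footprints and far more RNA. PLCG2, a phospholipase C of receptor signalling, alone took 3.74% of all RNA counts of the knockout-labelled line (254621) but 0.0798% of its footprints (2603), a value of -5.41 (-5.46 to -5.35) or 42.4-fold below the median gene. It had 214112 RNA and 3485 footprint counts in the OE-labelled line. The zinc finger gene ZNF844 had 54 footprints against 17364 RNA counts (-7.11), and 55 against 9092 (-6.33). RIMBP3 had 81 against 12006 (-6.0), S1PR3, a sphingosine 1-phosphate receptor, 50 against 6390 (-5.78), and SLC7A2, a transporter of cationic amino acids, 27 against 4387 (-6.11). The OE-labelled line gave 106 against 9504, 57 against 3751 and 46 against 2351 for these 3 genes. MTRNR2L3 had 390 against 45721 counts (-5.67) and resembles the mitochondrial 16S rRNA gene, and RIMBP3 has near-identical copies, so both are uncertain. PLCG2 RNA stood at 37371 CPM in the knockout-labelled line, above EEF1A1 at 8863 CPM. Where the RNA reads of PLCG2 and ZNF844 lie within their listed transcripts is not given, so these values are uncertain as well. All 12 of the lowest genes were in the lowest 5% of both lines.

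The bases around the annotated start codon are shown for 3 of the 12 genes named at each end, because the bases next to the ATG are known to bear on how well it is recognised. They come from the listed transcripts in GENCODE release 29 (GRCh38), 12 bases before the ATG to 6 after it, with the ATG in capitals. The A of the ATG lies at position 18323020 of chromosome 19 for LSM4 (minus strand), 48171484 of chromosome 7 for ABCA13 (plus strand) and 29748544 of chromosome 22 for ZMAT5 (minus strand), and at 12718745 of chromosome 6 for PHACTR1 (plus strand), 103989356 of chromosome 7 for RELN (minus strand) and 55125293 of chromosome 4 for KDR (minus strand).
LSM4: cccgccggcaccATGcttccc
ABCA13: ggagcagcaggcATGgggcat
ZMAT5: ctctgagtggccATGgggaag
PHACTR1: ggaacatcaaggATGgattat
RELN: ggcggcggcggcATGgagcgc
KDR: tcgaggtgcaggATGcagagc
By interval bound these genes ranked 1, 2 and 4 among the highest and 1, 2 and 5 among the lowest, so they are not the 3 most extreme. All 6 have an A or G at the third base before the ATG, position -3, so that base does not separate the ends among these genes. MTRNR2L3, another of the 12 lowest, has T there. Over the 8534 genes whose listed transcript has a coding sequence that begins with ATG, 7289 had A or G at -3, with a median value of 0.06. The other 1245 had a median of -0.32. Those 1245 have C or T at -3 or no listed base there, as in MT-CO1 with a 5′ UTR of 0 nt. In the OE-labelled line the medians of both groups, over the genes that passed there, were 0.05 and -0.36.

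Transcript lengths differed between the ends of the range of values. Between the lowest and the highest 10% of genes, the median 3′ UTR fell from 2438 to 286.5 nt, the median coding sequence from 1486.5 to 954 nt and the median 5′ UTR from 214 to 138 nt. Over the 10 equal groups only the 3′ UTR median fell at each step, while the coding and 5′ UTR medians first rose. Across genes, Spearman's rho with the value was -0.46 for 3′ UTR length, -0.16 for coding length and -0.15 for 5′ UTR length (8534 genes), and -0.25 for the GC content of the 5′ UTR (8158 genes). The OE-labelled line gave -0.45, -0.09, -0.15 and -0.23. Genes are not independent replicates, and these are descriptions. The part of the transcript that was counted is not given in the sources used here. RNA fragments cover the whole transcript while ribosomes sit mainly on the coding part, so where the whole transcript is counted a long UTR adds RNA counts and few footprints. With RNA counts scaled by the coding share, rho was 0.02 for 3′ UTR length and -0.49 for coding length. The relation to 3′ UTR length thus depends on this scaling, which itself uses the lengths.

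**Figure D2:**
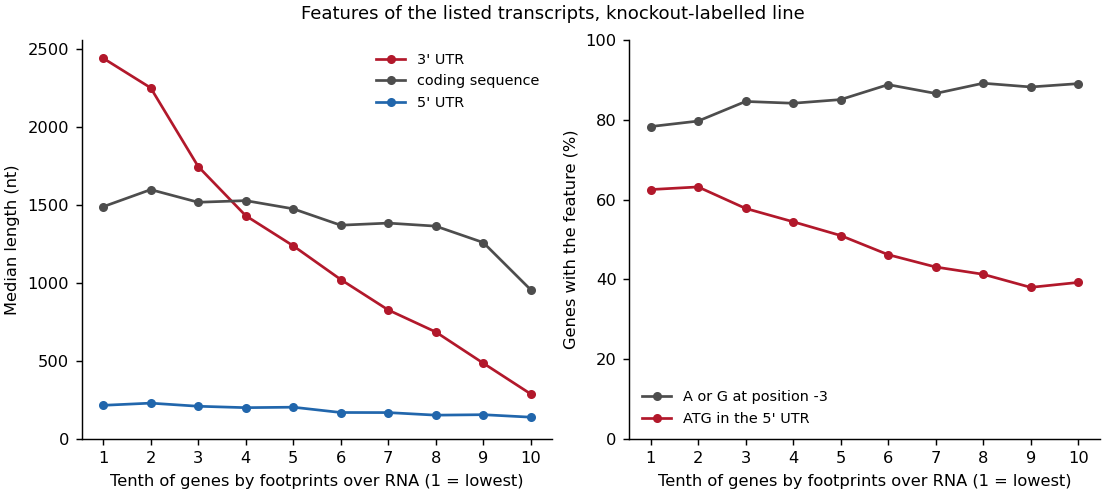
Median lengths of the 3′ UTR, coding sequence and 5′ UTR in nt (left) and the percentage of genes with an A or G at position -3 or an ATG in the 5′ UTR (right), for 10 equal groups of genes from the lowest (1) to the highest (10) value in the knockout-labelled line. The 3′ UTR shortens from 2438 to 286.5 nt, and the share with an ATG in the 5′ UTR goes from 62.5% to 39.2%.

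Upstream ATGs, which can start short reading frames ahead of the main one and are known to divert ribosomes from it, were more frequent among low genes. They were found in the 5′ UTR of 62.5% of the lowest 10% of genes and 39.2% of the highest 10%, and A or G at -3 in 78.3% and 89.1%. Genes with no listed base at -3 count as without A or G. The 4239 genes with an upstream ATG had a median value of -0.25 and the 4295 without one 0.24. The direction was the same in each of 4 equal groups by 3′ UTR length, with medians, with and without an upstream ATG, of 0.57 against 0.86, -0.01 against 0.43, -0.48 against 0.04 and -1.01 against -0.60 from the shortest to the longest. Scaling by coding share left rho between the number of upstream ATGs and the value at -0.13, from -0.19. Between the lowest and the highest 10% of genes the median 5′ UTR length also fell, from 214 to 138 nt, and its median GC content from 73.5% to 62.3%. Whether the relation to upstream ATGs is separate from these was not tested.

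Of 28 gene lists, replication-dependent histones stood highest and the mitochondrially encoded proteins lowest. Lists are described by their median value and by their members at least 2-fold above and below, to be read against 16.5% above and 23.0% below over all genes. List medians of the OE-labelled line cover only the members that passed in both lines. All genes here include the 3177 that passed through RNA alone (median -0.96), while genes with at least 100 counts in both assays had a median of 0.48. List medians with that minimum are given at the end. Of 28 measured histone genes, whose mRNAs end in a stem-loop in place of a poly(A) tail, 22 were at least 2-fold above and none below, with a median of 1.57 and all 28 above the median gene. They ran from HIST2H2BE (442 footprint and 624 RNA counts, 0.71) to HIST1H3D (712 and 288, 2.51), which had 410 and 270 counts (1.63) in the OE-labelled line. Histone genes are near copies of each other, so single members are uncertain. Of 26 that passed in both lines, 14 were in the top 5% of the knockout-labelled line and 12 in that of both. The medians of these 26 were 1.66 in the knockout-labelled line and 1.59 in the OE-labelled line.

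The 13 mRNAs made in mitochondria, which are translated by mitochondrial ribosomes, had a median of -3.47 (-4.21 in the OE-labelled line), with 12 at least 2-fold below. MT-CO1, a catalytic subunit of cytochrome c oxidase, had 2040 footprints against 48579 RNA counts (-3.37, 10.3-fold below), and 1192 against 44759 (-4.21). MT-CO2 had 673 against 7339 (-2.24), and 389 against 6044 (-2.93). MT-ND4L, a complex I subunit, was the lowest at -4.11 from 16 and 658 counts, and MT-ATP8, an ATP synthase subunit, the highest at -0.70 from 56 and 211. Of the 13 genes, 11 were in the lowest 5% of both lines. Of 72 nuclear-encoded genes of oxidative phosphorylation, by contrast, 35 were at least 2-fold above and 1 below, with a median of 0.95. That list also holds the SDH genes of complex II, which has no subunit among the 13. The highest was COX6B1 (908 and 445 counts, 2.23) and ATP5B, an ATP synthase subunit, had 6677 and 7193 counts (1.1). The exception was ATP5G3, another ATP synthase subunit, with 1187 footprints against 8266 RNA counts (-1.59), and 853 against 9207 (-2.41); it stood at 1.01 when RNA counts were scaled by coding share. Of 72 proteins of the mitochondrial ribosome, 31 were at least 2-fold above and none below (median 0.90), from MRPL37 (-0.72) to MRPL55 (238 and 107 counts, 2.35).

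**Figure D3:**
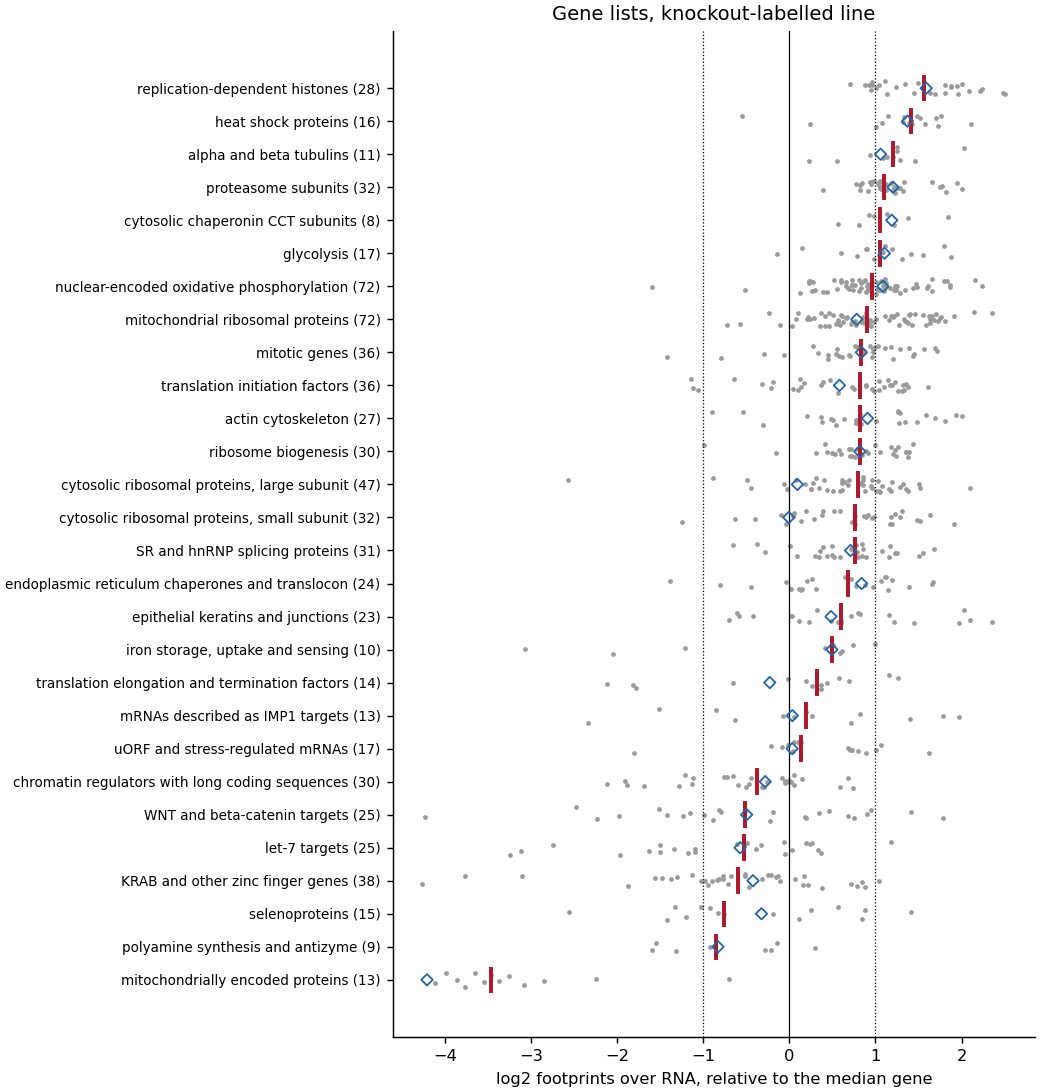
Log2 footprint over RNA relative to the median gene for the measured members of 28 gene lists in the knockout-labelled line (grey points, 1 per gene, number of genes in brackets). Red bars are list medians, blue diamonds the OE-labelled medians of the members that passed in both lines, and dotted lines 2-fold above and below. Histones have the highest median (1.57) and mitochondrially encoded proteins the lowest (-3.47), and the red bars of both cytosolic ribosomal protein lists lie to the right of their diamonds.

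Lists of protein folding, degradation, metabolism and cell structure lay above the median gene. Of 16 heat shock proteins, 14 were at least 2-fold above and none below (median 1.41), with the small heat shock protein HSPB1 at 2.11 (1442 and 768 counts), HSPA8 at 1.70 (14169 and 10035) and HSP90AA1 at 1.15 (13368 and 13915), while DNAJB1 stood at -0.55 (279 and 946). Of 32 proteasome subunits, 22 were at least 2-fold above and none below (median 1.09), from PSMD2 (0.40) to PSMB4 (2282 and 1311 counts, 2.0). Of 8 subunits of the chaperonin CCT, which folds actin and tubulin, 4 were at least 2-fold above and none below (median 1.06), with CCT3 highest at 1.84. Tubulins gave 8 of 11 (median 1.20), with TUBB at 2.02. Glycolytic enzymes gave 10 of 17 (median 1.05), led by PKM, the last enzyme of the pathway (10303 and 6440 counts, 1.88), and ENO1 (15655 and 10353, 1.80). Actin cytoskeleton genes gave 12 of 27 (median 0.82), with ACTB at 0.82 (16815 and 21967) and ARPC3 at 2.01. None of these 3 lists had a member at least 2-fold below.

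Smaller shares passed 2-fold in the lists of nuclear and membrane processes. Mitotic genes gave 11 of 36 above and 1 below (median 0.84), with TOP2A at 1.21 and BIRC5, an inhibitor of apoptosis and part of the chromosomal passenger complex, at -1.42. Ribosome biogenesis factors gave 11 of 30 above and none below (median 0.82), with NPM1 at 1.39, and SR and hnRNP splicing proteins 8 of 31 above and none below (median 0.76), with PTBP1 at 1.68. Endoplasmic reticulum chaperones and translocon genes gave 8 of 24 above and 1 below (median 0.68), with the chaperone HSPA5 at 1.65 and the translocon-associated SSR3 at -1.38. Epithelial keratins and junction genes gave 7 of 23 above and none below (median 0.60), with CLDN3 at 2.35, KRT8 at 2.1 and KRT18 at 1.44. Scaling RNA counts by coding share, an alternative chosen after the data were seen, moved several list medians by over 1.5 times: mitotic genes to 0.12, ribosome biogenesis to 0.25, CCT to 0.39, tubulins to 0.55, heat shock proteins to 0.78 and histones to 0.96. BIRC5 stood at 0.12 and SSR3 at 0.27 under that scaling.

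Polyamine, selenoprotein, zinc finger and chromatin lists lay below the median gene. Polyamine genes had a median of -0.85 with none of 9 at least 2-fold above and 3 below. ODC1, the first enzyme of polyamine synthesis, had 550 footprints against 3840 RNA counts (-1.60, -1.73 to -1.47), and 741 against 2215 (-0.56) in the OE-labelled line. OAZ1, its antizyme, which is made through a frameshift, stood at -0.92 (693 and 3034) and -1.13. Selenoproteins, which read a UGA codon as selenocysteine, gave 1 of 15 above and 5 below (median -0.75). Over the 14 that passed in both lines the medians were -0.79 and, in the OE-labelled line, -0.32. GPX4, a peroxidase of lipid hydroperoxides, stood at -1.33 (260 and 1508), SEPN1 at -2.55 (39 and 534) and TXNRD1 at 0.87 (1872 and 2356). The selenoprotein median was -0.10 with coding-share scaling. Zinc finger genes gave 1 of 38 above and 10 below (median -0.60), and chromatin regulators with long coding sequences 0 of 30 above and 8 below (median -0.38, and -1.21 with coding-share scaling).

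Iron genes had a median of 0.50 (0.49 in each line over the 9 that passed in both), with 7 of 10 above the median gene, none at least 2-fold above and 3 at least 2-fold below. The median was -0.015 with coding-share scaling and 0.036 with at least 100 counts in both assays. Both ferritin subunits were among the 3 low members, and their mRNAs carry the best known iron-responsive element. FTL had 355 footprints against 6876 RNA counts (-3.07, -3.23 to -2.92, 8.39-fold below) and 402 against 6221 (-2.93) in the OE-labelled line. FTH1 had 6069 against 57631 (-2.04, -2.08 to -2.0) and 3629 against 27031 (-1.87). FTH1 RNA was higher in the knockout-labelled library (8459 against 4979 CPM) and its value differed little. The highest of the list was the iron-sensing aconitase ACO1, at 1.00 (468 and 540).

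Lists related to the labelled proteins and to WNT signalling lay on either side of the median gene. Of 25 genes described as let-7 targets, a list that holds LIN28B and all 3 IMP genes, 1 was at least 2-fold above and 11 below (median -0.53, and -0.57 in the OE-labelled line). DICER1 had 503 footprints against 3289 RNA counts (-1.50), the nuclear receptor NR6A1 10 against 229 (-3.25), and HMGA1 2839 against 8244 (-0.33, and 1.33 with coding-share scaling). Of 13 measured mRNAs described as IMP1 targets, 3 were above and 2 below (median 0.19, and 0.04). The median was -0.22 with at least 100 counts in both assays and 0.50 with coding-share scaling, so its side of the median gene depends on the minimum. They ran from IGF2, an insulin-like growth factor (63 and 738 counts, -2.33), to CTNNB1, which encodes beta-catenin (4620 and 2712, 1.97). The listed transcripts are 9.67% coding for IGF2 and 88.7% for CTNNB1, and scaled values of both genes are not given here. CTNNB1 had 4841 and 2540 counts (1.95) in the OE-labelled line. Of 25 WNT and beta-catenin targets, 2 were above and 8 below (median -0.51). Over the 22 that passed in both lines the medians were -0.65 and, in the OE-labelled line, -0.50. The median of -0.51 also turned, to 0.20 with at least 100 counts in both assays and 0.02 with 1 count in either. APCDD1, a WNT inhibitor, was the lowest with 2 footprints against 108 RNA counts (-4.23, -7.61 to -2.66), compared with 104 against 404 (-0.93), and CD44 the highest at 1.78 (297 and 199).

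Gene order was broadly shared by the lines. Over the 7551 genes that passed in both (1047 of the 8598 passed in the knockout-labelled line alone), the values had a Pearson's r of 0.88 and a Spearman's rho of 0.88, across genes that share the listed transcript. Of the 378 genes in the top 5% of each line, 208 (55.0%) were in the top 5% of both, and of the 378 in the bottom 5%, 245 (64.8%). No gene was in the top 5% of one line and the bottom 5% of the other. The top 5% of the knockout-labelled line reached down to percentile 41.1 in the OE-labelled line, and its bottom 5% up to percentile 63.6. Percentiles differed by at most 10 points in 4446 genes (58.9%), were at least 25 points higher in the knockout-labelled line in 323 (4.28%) and at least 25 points lower in 294 (3.89%). The counting interval of the difference in log2 values did not hold 0 in any of the genes that changed by at least 25 points. These genes were picked on the same counts, so the interval adds no separate support, and it holds no variation between libraries.

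**Figure D4:**
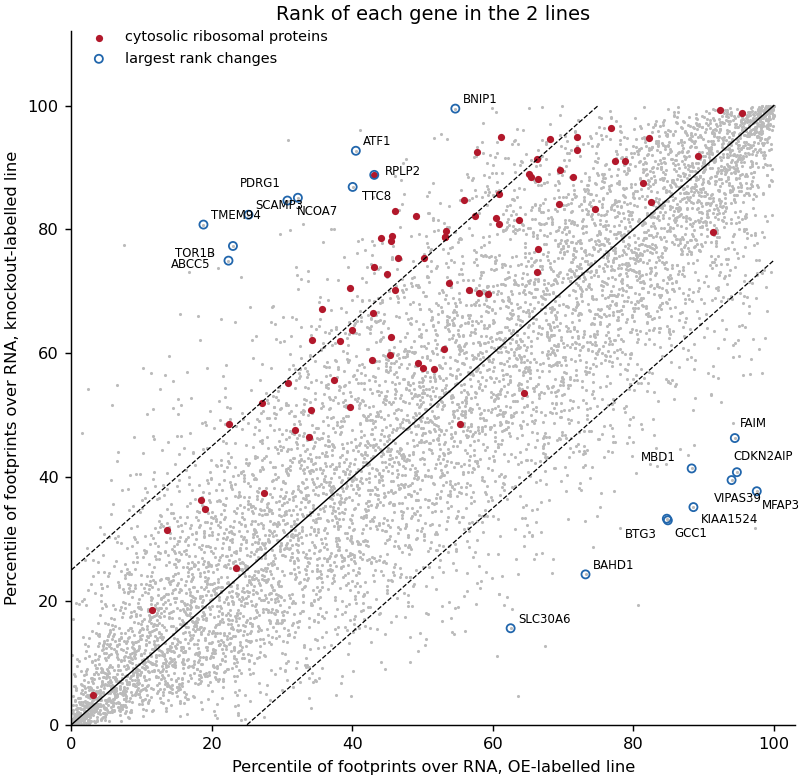
Percentile of each of the 7551 genes by footprint over RNA in the OE-labelled line (horizontal) and the knockout-labelled line (vertical); the solid diagonal marks equal rank, dashed lines 25 points, red points cytosolic ribosomal proteins, and blue circles the 10 largest rises and 10 largest falls named in the text. Most red points lie above the diagonal.

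Of the 28 lists, both lists of cytosolic ribosomal proteins had the largest median change in percentile, 17.6 points for the large subunit and 19.99 for the small one. Of 47 large-subunit proteins, 46 had a higher percentile in the knockout-labelled line and 1 a lower one, with 11 higher by at least 25 points, and of 32 small-subunit proteins these numbers were 30, 2 and 11. Over all genes 48.7% had a higher percentile, and the median change was -0.23 points. The percentile of the list median went from 53.2 to 76.8 for the large subunit and from 49.7 to 75.4 for the small one, and the medians of the log2 value from 0.09 to 0.80 and from -0.01 to 0.77. In the knockout-labelled line 15 of 47 and 10 of 32 were at least 2-fold above, and 1 of each below. Large-subunit genes took 4.81% of its footprints and 3.25% of its RNA counts, and small-subunit genes 4.09% and 2.58%. Scaling by coding share lowered the large-subunit median to 0.38.

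RPLP2, an acidic protein of the ribosomal stalk, shifted most. It had 2536 footprints and 2557 RNA counts (1.19, 1.11 to 1.27) against 1280 and 2998 (-0.20), and its percentile went from 43.1 to 88.8. Per library total its footprints were higher in the knockout-labelled line (778 against 468 CPM) and its RNA lower (375 against 552 CPM). RPS14 had 4719 and 5486 counts (0.99) against 2477 and 5417 (-0.11), with RNA at 805 against 998 CPM, and its percentile went from 46.1 to 82.9. RPL31 had 5434 and 4368 counts (1.52) against 3408 and 5494 (0.33), RPL23A 3206 and 2890 (1.35) against 2490 and 4299 (0.24), and RPL6 5595 and 7123 (0.86) against 2779 and 6370 (-0.17). The highest member was RPL24 (5478 and 2956, 2.09, against 1.33) and the lowest RPL41, the shortest ribosomal protein (626 and 8563, -2.57, against -2.89). The listed RPL41 transcript is 10.7% coding, and its scaled value is not given here. RPL4, with the most RNA counts of the large subunit, had 0.26 against 0.01, and RPLP0 -0.50 against -1.19. RPS26 and RPS21 were the small-subunit members with a lower percentile, by 10.8 and 6.9 points. RPS27A and FAU, which are made as fusions to ubiquitin and to a ubiquitin-like protein, went from 66.3 to 91.4 and from 95.5 to 98.8. Ribosomal protein genes have many processed pseudogenes, so reads of single members may be split.

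**Figure D5:**
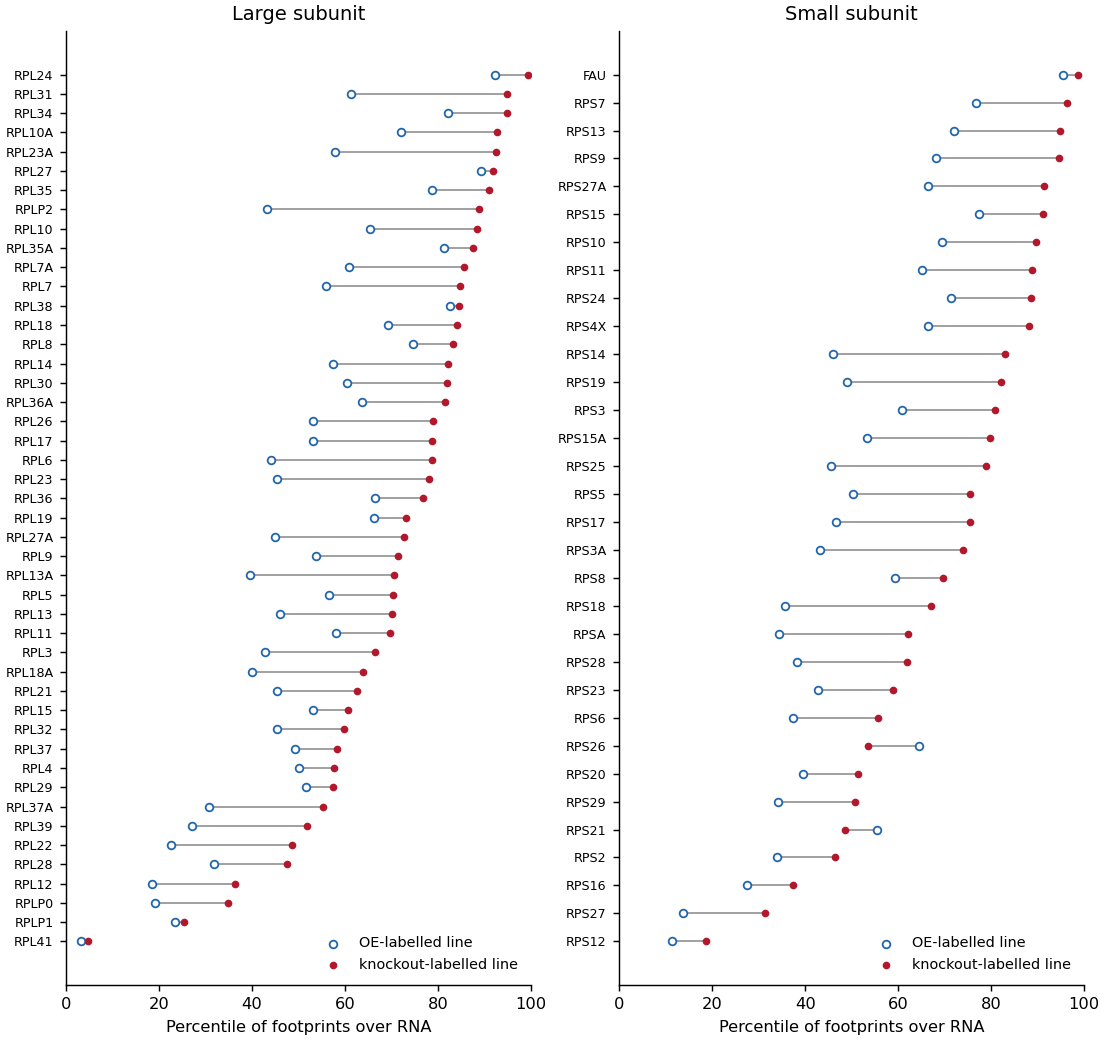
Percentile of cytosolic ribosomal protein genes by footprint over RNA in the OE-labelled line (open blue) and the knockout-labelled line (filled red), large subunit left and small subunit right, ordered by the knockout-labelled line. All plotted genes but RPS26 and RPS21 have the red point to the right; 1 large-subunit gene, the one with a lower percentile, is not plotted.

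Transcripts of ribosomal proteins are known to begin with a C followed by a run of pyrimidines, the TOP element, through which their translation follows growth signalling. The first 20 transcribed bases of the 5 ribosomal protein genes with the largest rises in percentile, among those with 1 start in the RefSeq table (GRCh38.p14), are shown because these mRNAs moved together. Capitals mark the unbroken run of C and T from the first base. The positions are chr11:809967-809986 (plus strand), chr5:150449720-150449739 (minus), chr2:101002289-101002308 (plus), chr11:119018324-119018343 (minus) and chr6:33272075-33272094 (plus), in the order printed.
RPLP2: CCTTTTCCTCCCTgtcgcca
RPS14: CTCTCTTTCCggtgtggagt
RPL31: CTTCCTTTCCaacttggacg
RPS25: CTTTTTgtccgacatcttga
RPS18: CTCTCTTCCacaggaggcct
A C followed by 4 bases that are each C or T, searched on the sense strand at the listed start only, was found in 77.4% of the 53 ribosomal protein genes matched and in 6.58% of all 4166 genes matched. The 41 ribosomal protein genes with such a start had a median rise of 17.9 points and 40 of them rose, and the 12 with another listed start had a median of 18.6 points and 11 rose. The 233 other genes with such a start had a median change of 0.72 points, with 14 higher by at least 25 points, 7 lower by at least 25 and 125 higher by any amount. The 3880 remaining genes had -0.53. Ribosomal protein genes with and without such a start had similar medians, and other genes with such a start had a median change near 0. Listed starts can differ from those used in these cells. Some of the 12, such as RPL10A, RPL9 and RPL4, have a run of C and T a few bases inside the listed start. The 12 are thus not a group shown to lack a TOP element, and their median cannot stand for one.

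The mRNAs of elongation factors are also known to begin with a TOP element. Of 14 elongation and termination factors, 11 had a higher percentile in the knockout-labelled line, 3 of them by at least 25 points. Their median was 0.32 (-0.23 in the OE-labelled line, and -0.11 in the knockout-labelled line with at least 100 counts in both assays), with 2 at least 2-fold above and 3 below. EEF1A1, which brings aminoacyl-tRNA to the ribosome, had 33933 footprints and 60386 RNA counts (0.37) against 22653 and 63097 (-0.45). EEF2, the translocase, had 11270 and 17476 (0.57) against 6906 and 16002 (-0.19). With coding-share scaling they stood at -0.24 and -0.22 in the knockout-labelled line, so their side of the median gene depends on it. EEF1D, an exchange factor for EEF1A1, had 1337 and 1283 counts (1.26) against 892 and 1381 (0.39). PABPC1, the poly(A)-binding protein, stayed low at -2.12 (712 and 7139) and -2.36 (684 and 7149). EEF1A1 and PABPC1 have many near copies. Of 36 initiation factors, 20 had a higher percentile and 16 a lower one, against 48.7% higher over all genes. Their median was 0.82 (0.58 in the OE-labelled line), with 14 at least 2-fold above and 3 below. The 1 factor higher by at least 25 points was EIF3L, an EIF3 subunit named here after its values were seen, with 793 and 1393 counts (0.39) against 497 and 1641 (-0.70). EIF4A1, the cap-complex helicase, stood at 1.1 and 1.32, and EIF4G2, which lacks the EIF4E-binding region, at -1.14 and -0.96. Of 17 genes listed as regulated by upstream frames or stress, 3 were at least 2-fold above and 1 below. Their median of 0.14 turned to -0.35 with at least 100 counts in both assays. Over the 15 that passed in both lines the medians were 0.12 and, in the OE-labelled line, 0.03. ATF4, the stress transcription factor whose mRNA has regulatory upstream frames, had 2739 and 3020 counts (1.06) against 1458 and 2568 (0.21) and went from percentile 57.0 to 85.1, while its target TRIB3 stood at 0.14 and 0.16.

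In the 10 largest rises among genes with at least 50 counts in every library, footprints per library total were higher and RNA per library total was lower in the knockout-labelled line. TMEM94, a membrane protein of the endoplasmic reticulum, had 162 footprints and 198 RNA counts (0.92) against 54 and 254 (-1.20), and went from percentile 18.8 to 80.8. SCAMP3, a carrier membrane protein, had 198 and 233 counts against 73 and 273 (25.2 to 82.4), TOR1B, an ATPase of the torsin family, 257 and 336 against 86 and 349 (23.0 to 77.3), and NCOA7, an estrogen receptor coactivator, 150 and 167 against 64 and 203 (30.8 to 84.7). PDRG1 had 281 and 310 counts against 82 and 251 (32.2 to 85.1), the transporter ABCC5 190 and 260 against 53 and 220 (22.4 to 75), and the transcription factor ATF1 225 and 201 against 73 and 183 (40.5 to 92.7). TTC8, a BBSome subunit, had 228 and 241 counts against 86 and 218 (40.0 to 86.9), and BNIP1, a SNARE protein, 194 and 100 against 56 and 104 (54.7 to 99.5). RPLP2, described above, completed the set. TMEM94 went from 19.8 to 49.7 CPM in footprints and from 46.8 to 29.1 CPM in RNA, while RNA of PDRG1 was close, at 46.2 and 45.5 CPM.

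Among the 10 largest falls, footprint counts were lower and RNA counts higher in the knockout-labelled line, also per library total. MFAP3, a microfibril-associated protein, had 61 footprints and 185 RNA counts (-0.39) against 108 and 68 (1.69), and went from percentile 97.6 to 37.7. VIPAS39, a vesicle-sorting protein, had 72 and 209 counts against 127 and 97 (94.0 to 39.5), CDKN2AIP 81 and 229 against 115 and 85 (94.7 to 40.8), and KIAA1524, which encodes the PP2A inhibitor CIP2A, 63 and 204 against 106 and 97 (88.6 to 35.1). BTG3, an antiproliferative protein, had 79 and 271 counts against 208 and 210 (84.9 to 33.0), and GCC1, a golgin, 162 and 551 against 245 and 249 (84.8 to 33.3). BAHD1, a heterochromatin protein, had 84 and 373 counts against 110 and 143 (73.2 to 24.3), and FAIM, an inhibitor of FAS-driven apoptosis, 82 and 203 against 121 and 91 (94.4 to 46.3). SLC30A6, a zinc transporter, had 56 and 344 counts against 122 and 193 (62.5 to 15.6), and the methyl-CpG-binding MBD1 97 and 269 against 127 and 117 (88.3 to 41.4). MFAP3 went from 39.5 to 18.7 CPM in footprints and from 12.5 to 27.2 CPM in RNA, while RNA of BTG3 was close, at 38.7 and 39.8 CPM.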

How the data were processed

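Ribosome footprints (18 to 34 nt) and RNA fragments (18 to 50 nt) were sequenced from each line after rRNA depletion, with random identifiers of 4 nt (5′) and 5 nt (3′) in the linkers and 15 PCR cycles, per the labels' protocols. The authors deposited whole-number counts per gene for 1 transcript each, per the file headers. The submitters' processing notes name GRCh38 and, with no role or order, HISAT2 2.1.0, cutadapt 1.10 and Bowtie 1.1.2. Which counter and annotation were used, which part of a transcript was counted and whether PCR copies were collapsed is not given in the sources used here. Intervals are too narrow if copies were counted. The cell line field of 1 library, OE-labelled RNA, reads SW840 and was taken as SW480.

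Counts were scaled to CPM of the library total, 0.5 was added, and log2 footprint over RNA was centred on the median gene passing 100 counts in either assay. The 95% interval of a value is the exact conditional (Clopper-Pearson) interval of the pair of counts, and that of a difference between lines is a Wald interval from 4 counts. Folds of genes with 0 counts use a floor, 3 counts in that library. Percentiles are among genes passing in both lines. Named genes are the 12 highest and 12 lowest values by the interval bound nearest 0, the 10 largest rises and falls in percentile with at least 50 counts in all 4 libraries, the highest, lowest and 2 most abundant members of each list, up to 6 genes with 0 counts, and the IMP genes with LIN28B. Ribosomal proteins other than these, and the exceptions RPS26 and RPS21, were named after their values were seen, and 1 gene of the large-subunit list, counted in its totals, is not reported here by name. The members and lists were chosen with earlier results of these data known. GENCODE 29 held 19176 of 19192 transcripts. Alternatives used edgeR 4.0.16 TMM factors, DESeq2 1.42.0 size factors, other minimums, thresholds and added counts, and RNA counts scaled by coding share. Steps were tested on simulated data. Software was R 4.3.3, matplotlib 3.10.9, pandas 2.3.3, scipy 1.17.1, numpy 2.4.6 and Python 3.11.15.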

Additional observations from a re-analysis of the deposited data

Results flagged for a closer look

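Of the 154 genes chosen by the rule for named genes, 14 lay on opposite sides of the median gene in the lines, with both counting intervals clear of it. All but EEF1A1 and EEF2 had been named for their large rank change between the lines, so opposite sides were favoured by that choice. The share over all genes was not counted. With 1 library a side the difference was not tested against replicates. Above the median gene in the knockout-labelled line and below it in the OE-labelled line were 9 genes: TMEM94 (log2 0.92 against -1.20), SCAMP3 (0.97 against -0.87), TOR1B (0.82 against -0.99), ABCC5 (0.75 against -1.02), NCOA7 (1.05 against -0.63), PDRG1 (1.06 against -0.58), RPLP2 (1.19 against -0.20), EEF1A1 (0.37 against -0.45) and EEF2 (0.57 against -0.19). Below it in the knockout-labelled line and above it in the other were 5: SLC30A6 (-1.40 against 0.36), KIAA1524 (-0.48 against 1.15), BTG3 (-0.57 against 1.01), GCC1 (-0.56 against 1.00) and BAHD1 (-0.94 against 0.65). RPLP2, EEF1A1 and EEF2 rest on over 1000 counts in every library, and the other 11 on fewer than 600.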

How the results depend on the processing

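No paired analysis was possible because each line gave 1 library per assay and the labels carry no replicate numbers. The counts at least 2-fold above and below the median gene stayed within 1.5 times under edgeR TMM factors (1292 and 2071), DESeq2 size factors (1365 and 2022) and 5 added to each count (1356 and 1885). They were 406 and 870 among the 5320 genes with at least 100 counts in both assays. With at least 1 count in either assay they were 3507 and 3728, in a larger set of genes whose size is not given here. Among the 8598 genes they were 100 and 770 at 4-fold, and 2591 genes were at least 1.5-fold above. The range of the middle 50% of genes, 1.64, was 1.18 with 100 counts in both assays, 1.93 with 1 count and 1.57 with RNA counts scaled by coding share. The share of the top 5% found in both lines was 48.2%, 60.2% and 31.1% at minimums of 50, 200 and 1, and 68.3% with coding-share scaling, and that of the bottom 5% 59.7%, 70.3% and 41.8%. Rises and falls of at least 25 points numbered 584 and 525 at a minimum of 50, 133 and 97 at 200, and 1389 and 1385 at 1, and 15 and 10 genes moved by at least 50 points. More genes changed rank at lower minimums, but lower minimums also admit more genes, and shares were not computed.

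Without centring, medians moved to 0.81 (oxidative phosphorylation), 0.95 (proteasome) and 0.67 (ribosome biogenesis), and the upstream-frame and stress list and TRIB3 reversed to -0.0036. With 100 counts in both assays, the centre was higher and medians were 0.33 (large-subunit ribosomal proteins), 0.48 (oxidative phosphorylation), 0.44 (mitochondrial ribosome), 0.62 (proteasome), 0.93 (heat shock), 0.57 (glycolysis), 0.34 (actin), 0.29 (splicing), 0.34 (ribosome biogenesis), 0.38 (mitotic), -0.78 (chromatin) and -3.93 (mitochondrially encoded), and these medians turned: -0.35 (upstream-frame list), -0.22 (IMP1 targets), -0.11 (elongation and termination) and 0.20 (WNT targets). Under the same minimum, medians were 0.29 (small-subunit ribosomal proteins), 0.27 (endoplasmic reticulum chaperones and translocon) and 0.12 (epithelial keratins and junctions). Histones had 1.16, tubulins 0.72, CCT 0.58, initiation factors 0.35 and iron genes 0.036. Zinc fingers had -0.31, let-7 targets -0.54, selenoproteins -0.67 and polyamine genes -1.40 at that minimum. These genes reversed with it: AZIN1 (-0.17), CCND1 (-0.28), EEF1A1 (-0.10), FLNA (-0.11), HNRNPA1 (-0.081), PSMD2 (-0.081), RPL4 (-0.22), TRIB3 (-0.34) and TUBG1 (-0.25). With 1 count, medians were 1.03 (large-subunit ribosomal proteins), 1.18 (oxidative phosphorylation), 1.32 (proteasome), -0.090 (zinc fingers), 0.99 (splicing), 1.06 (mitotic) and, turned, 0.02 (WNT targets). Coding-share scaling, chosen after the data were seen, gave 0.38 (large-subunit ribosomal proteins), 0.96 (histones), -4.56 (mitochondrially encoded), 0.82 (proteasome), 0.39 (CCT), 0.78 (heat shock), 0.85 (glycolysis), 0.55 (tubulins), 0.25 (ribosome biogenesis), 0.12 (mitotic), -1.21 (chromatin), -0.10 (selenoproteins) and, turned, -0.015 (iron). It reversed ATP5G3 (1.01), BIRC5 (0.12), CKAP5 (-0.32), CLDN1 (0.67), EEF1A1 (-0.24), EEF2 (-0.22), FLNA (-0.62), HIST1H1C (-0.15), HMGA1 (1.33), LIN28B (0.29), MDM2 (0.20), PSMD2 (-0.35), SMARCA4 (-0.27), SRSF6 (0.33), SSR3 (0.27) and TUBG1 (-0.61). The cause of these moves beyond the scaling itself was not tested. Depth limits the low genes with under 20 footprints, whose intervals are wide.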
